A study of Mus musculus with 16 samples.

Results

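The nuclear genes of the oxidative phosphorylation system were followed through retinoic acid (RA) treatment of mouse embryoid bodies (EBs). The genes were taken by symbol from the RefSeq rows of the FPKM matrix: symbols that begin with Ndufa, Ndufb, Ndufc, Ndufs, Ndufv, Uqcr, Cox4i, Cox5, Cox6, Cox7, Cox8 or Atp5, and Sdha, Sdhb, Sdhc, Sdhd and Cyc1. The Ndufaf genes, which encode assembly factors, were left out. This gave 87 genes with 107 RefSeq rows, of 24222 RefSeq genes with 33702 rows in the matrix. Of the 87 genes, 37 belong to complex I, 4 to complex II, 9 to complex III, 20 to complex IV and 17 to ATP synthase (complex V). Ndufa4 and Ndufa4l2 were counted with complex IV, and the pseudogene Ndufs5-ps, which meets the symbol rule, with complex I.

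EBs were formed from R1 mouse embryonic stem (ES) cells in medium without Lif for 4 days, and total RNA was extracted before RA (day 0) and 4 days after RA was added at 2 µM (day 4). Each day has 2 biological replicates, called here the first and the second RNA of that day, and every one of these 4 RNA samples was split over 4 vials. The vials differ in the spike-in RNA added: IVT mixes 1, 2 and 3 in a vial each and none in the last (called mix 4), with the ERCC mix 1 in the first and the third vial and its mix 2 in the others. The 16 vials gave 16 ribosomal RNA depleted libraries; vials from the same tube of RNA are not biological replicates, so a day was represented by 2 values. The description of samples that goes with the study names the day, the replicate and the mix of every library, and so which vials share an RNA. All EBs come from the same parental line, day 0 EBs had already lost Lif for 4 days, and no untreated day 4 EBs are among the samples, so RA and time in culture cannot be told apart.

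Oxidative phosphorylation passes electrons from NADH through complex I, or from succinate through complex II, to ubiquinone, and from there through complex III and cytochrome c to complex IV, where oxygen is reduced. Complexes I, III and IV pump protons across the inner mitochondrial membrane, and ATP synthase uses the returning protons to make ATP. Complex II is encoded by nuclear genes alone, while the other complexes combine nuclear subunits with subunits encoded by mitochondrial DNA, which were not analysed here. Pluripotent stem cells are known for a strong use of glycolysis, and a shift toward respiration is a known feature of their differentiation.

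Many promoters of respiratory genes carry recognition letters of the transcription factor NRF-1, of ETS family factors such as GABP (NRF-2), or of YY1. RefSeq promoter windows of build GRCm38.p6, from 250 bases before to 50 bases after a start site, were matched for 69 of the 87 genes (74 windows). The NRF-1 letters GCATGCGC, read on both strands (they partly overlap their own reverse complement), stood in 10 of the 74 windows (13.5%) and in 2.71% of all 32851 windows. The ETS letters CCGGAAG stood in 17 of the 74 (23.0% against 8.86% of all), and the 1 base longer CCGGAAGT, which overlaps it, in 5 (6.76% against 3.89%). The YY1 letters AAGATGGC stood in 10 of the 74 (13.5% against 2.75%). The median GC content was 57.5% in these 74 windows and 52.7% in all windows, and the part of base composition in these shares was not tested; a match of letters is not a measured binding site. Of the 10 genes with the NRF-1 letters, 8 (Ndufa6, Ndufa8, Ndufa11, Sdhb, Cox6a1, Atp5g2, Atp5k and Atp5l) have them before the start site. The 48 bases around the match are shown for 5 genes of complexes I, II, IV and V. They were picked by their differences between the days with all libraries and no GC correction. These run from the lowest to the highest of those 8 genes. Whether the letters bear on the differences was not tested. The NRF-1 letters are in capitals, and each sequence is read 5′ to 3′ on the strand of the gene.
Ndufa6, minus strand, chr15:82354347-82354394: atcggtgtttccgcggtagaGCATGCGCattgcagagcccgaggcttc
Ndufa11, plus strand, chr17:56717684-56717731: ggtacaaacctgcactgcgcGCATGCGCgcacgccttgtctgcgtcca
Sdhb, plus strand, chr4:140961197-140961244: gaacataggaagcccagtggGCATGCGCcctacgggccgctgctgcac
Cox6a1, minus strand, chr5:115349091-115349138: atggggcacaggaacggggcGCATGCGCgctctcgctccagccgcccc
Atp5g2, minus strand, chr15:102671060-102671107: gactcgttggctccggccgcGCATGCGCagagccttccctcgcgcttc

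Before the days are compared, the libraries have to be described, because vials of the same RNA did not give the same values. The mix 3 and mix 4 vials of the second day 0 RNA stood apart from its mix 1 and mix 2 vials. The summed FPKM of the 87 genes was 14607 to 15240 in the 4 vials of the first day 0 RNA, 13606 and 12618 in the mix 1 and mix 2 vials of the second, and 9709 and 9968 in its mix 3 and mix 4 vials. In the 8 day 4 libraries the sum was 12480 to 13925, inside the range of the day 0 libraries. The FPKM of all 33750 rows of the matrix, spike-ins included, were also lowest in these vials, with a sum of 412141 and 411090 against 481736 to 622888 in the other 6 day 0 libraries and 422219 to 446834 at day 4. As a share of that total, the 87 genes took 2.36 to 2.62% at day 0 and 2.95 to 3.17% at day 4.

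The vials differed by the GC content of the transcript. In the mix 1 library of the first day 0 RNA, transcripts of about 60.8% GC lay 1.98 above the mean of the 16 libraries on the log2 scale and those of about 38.7% GC 0.69 below it. The mix 3 vial of the second day 0 RNA showed the opposite, -1.78 at 60.8% GC and 0.48 at 38.7% GC, and its mix 4 vial -1.46 and 0.38. The day 4 libraries lay between -1.12 and -0.21 at 60.8% GC. The GC profile therefore differs between the days as well as between the vials, and a part of it cannot be told apart from the day. The 82 genes with a GC value and a mean of at least 1 FPKM have a median GC content of 51.7% (42 to 61.1%) and a median length of 738 bases, against 49.9% and 2908 bases for 11434 genes of the table at that level. Day differences are given for the 16 libraries, and also without those 2 vials where the call changes. "Most abundant" refers throughout to the mean over the 4 RNA samples.

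**Figure D1:**
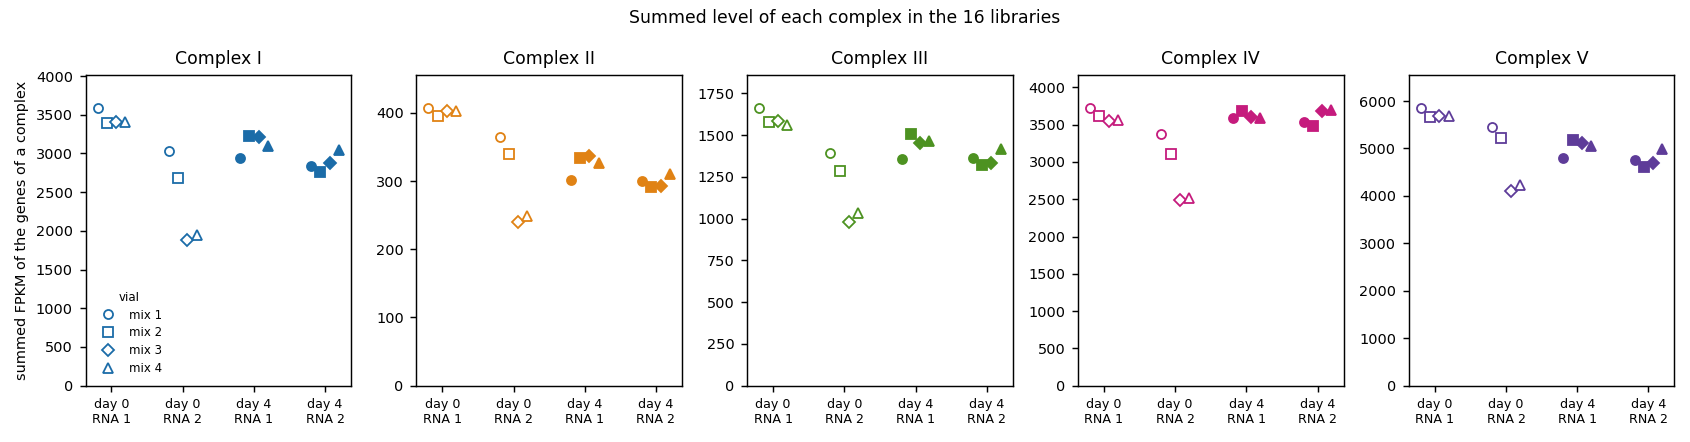
Summed FPKM of the genes of each complex (vertical axis, linear) in the 4 vials of each RNA sample (horizontal axis), with day 0 as open and day 4 as filled symbols and the mix given by the symbol. In every complex the mix 3 and mix 4 vials of the second day 0 RNA are the lowest 2 of the 16 libraries, for example 1884 and 1948 in complex I against 2676 to 3589 in the other 6 day 0 libraries.

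With all libraries, few of the genes passed the test between the days, and those that did were higher at day 4. Gene level FPKM were compared on the scale of log2(FPKM + 0.1) with limma, 2 RNA samples against 2, each the mean of its 4 vials, and a gene was called at a Benjamini-Hochberg adjusted p of at most 0.05. Of the 87 genes 85 were tested, since Cox6a2 and Cox8b are listed at 0 in all 16 libraries. At day 4, 9 of the 85 (10.6%) were called higher and 0 lower (17 and 2 with p at or under 0.05 in limma before adjustment), while 14.9% of the 20543 genes tested were called higher and 9.96% lower. With the first or the second day 4 RNA left out 0 were called by limma (3 and 2 higher with p at or under 0.05 before adjustment), with the first day 0 RNA left out 2 higher and 1 lower (11.9% and 9.77% of all genes), and with the second left out 14 and 18 (18.2% and 27.8%). Without either day 4 RNA no gene of the whole table was called, so the missing calls there are not particular to the studied genes. When the fit held a replicate block, 12 were called higher and 3 lower, beside 18.5% and 19% of all genes: Atp5j, Ndufb6, Ndufs4 and Uqcrh were then called higher (adjusted p from 0.032 to 0.048), Cox7a1, Cyc1 and Ndufa4l2 lower (adjusted p = 0.0148, 0.0276 and 0.0171), and Cox8c was not called (adjusted p = 0.0909; limma). The median log2 difference was -0.07 for the 85 genes and -0.02 for all genes tested. It turned positive when the normalisation factor of the library was removed (0.05) or when all libraries were rescaled to the same sum (0.21). The rescaling also turned the medians of complexes II (0.12) and IV (0.11) positive, while that of complex III stayed below 0 (-0.27). In 17 of the 85 genes (20%) all 8 day 4 libraries lay above all 8 day 0 libraries, and in 1 gene (1.18%), Ndufa4l2, all lay below, against 19.8% and 14.6% of all genes tested.

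Without the mix 3 and mix 4 vials of the second day 0 RNA the counts were far larger, and most of the calls were lower. Then 23 of the 85 genes (27.1%) were called higher and 37 (43.5%) lower by limma, beside 27.1% and 34.2% of all genes tested, and the median log2 difference was -0.34. The 9 genes called higher with all vials were among the 23. Against the other 6 day 0 libraries, all 8 day 4 libraries lay below in 38 genes (44.7%) and above in 26 (30.6%), compared with 32.6% and 25.6% of all genes tested. When each mix was compared alone, with 1 vial per RNA sample, 23 genes were called higher and 45 lower for mix 1, beside 27.3% and 38% of all genes tested, and 16 and 22 for mix 2, beside 23.1% and 27.6%. For mix 3 (5 higher and 0 lower with p at or under 0.05 before adjustment, limma) and mix 4 (9 and 0) 0 genes were called, beside 2.09% higher and 0.422% lower of all genes for mix 3 and 4.43% and 1.49% for mix 4. The direction was the same in all 4 mixes for 56 of 84 genes, 30 higher and 26 lower, and 18 of the other 28 were lower for mixes 1 and 2 and higher for mixes 3 and 4. Directions were not counted over all genes. The median log2 difference for mixes 1 to 4 was -0.45, -0.30, 0.19 and 0.18, against -0.14, -0.08, 0.01 and 0.00 for all genes tested.

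**Figure D2:**
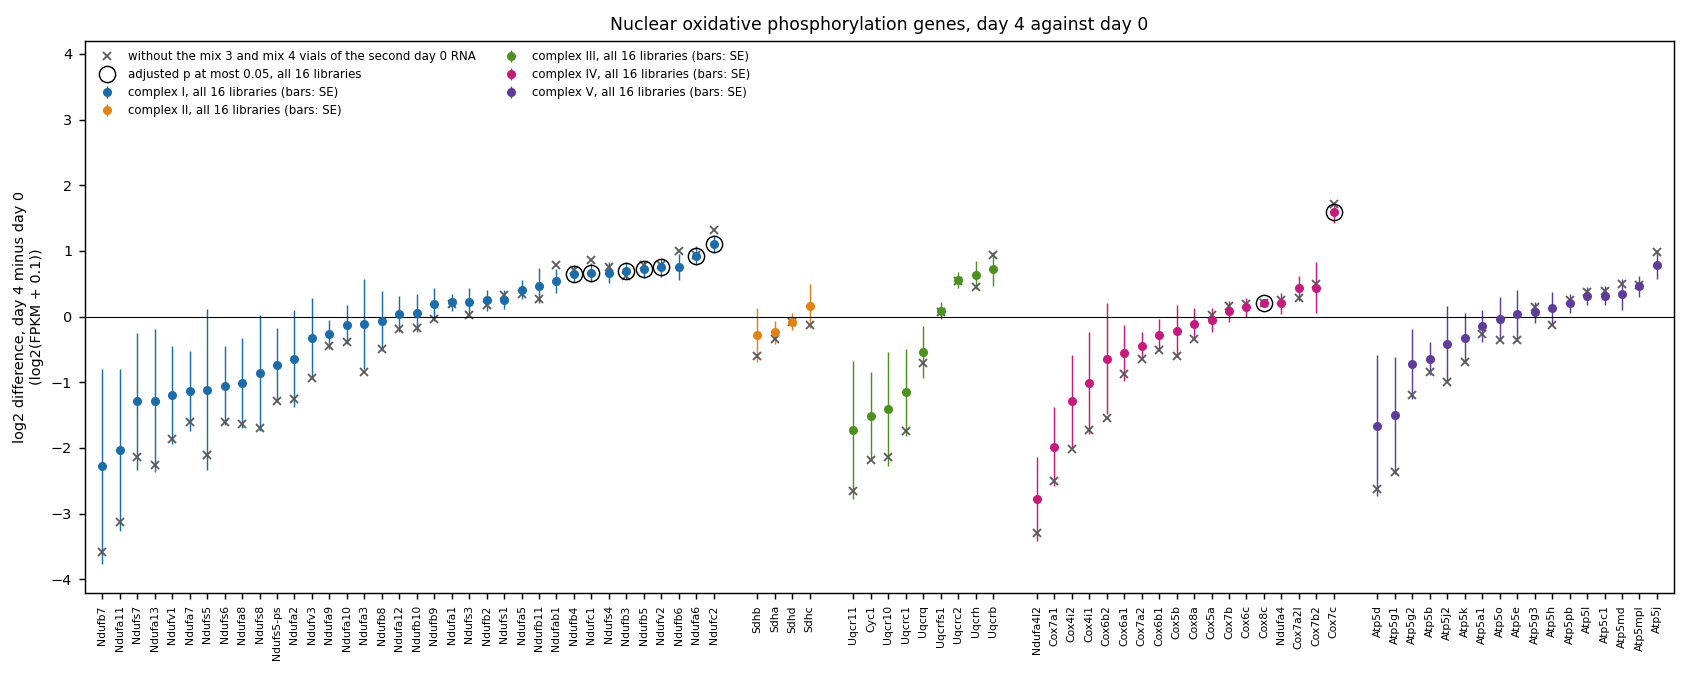
Log2 difference between day 4 and day 0 (vertical axis, log2(FPKM + 0.1)) of 84 of the 85 tested genes, ordered within each complex, with the SE of the limma fit as bars; crosses are the differences without the mix 3 and mix 4 vials of the second day 0 RNA and rings mark the 9 genes called with all libraries. The called genes have short bars and positive differences, whereas the genes with the lowest differences have SE of up to 1.49.

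Cox7c, a small structural subunit of cytochrome c oxidase, rose most with all libraries and without GC correction. It was at 404 and 401 FPKM in the 2 day 0 RNA samples and at 1148 and 1277 FPKM in the 2 day 4 RNA samples (geometric means of 4 vials). Its day 0 vials ran from 319 to 501 FPKM and its day 4 vials from 1104 to 1362, so the days did not overlap. The log2 difference was 1.59 ± 0.16 (SE; 3-fold, adjusted p = 0.0134, limma), and it was 1.72 without the 2 vials that stood apart. Its mean of 810 FPKM was the highest of the 87 genes, but it led them in the 8 day 4 libraries only, and Atp5b was above it in all 8 day 0 libraries. After GC correction Ndufa6 (1.48) and Atp5j (1.72, not called) had larger differences than Cox7c (1.45). With the 2 vials also left out, Ndufa6 (1.76) and Atp5j (2.34) were again above Cox7c (1.55).

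The other called genes of appreciable level all belong to complex I. Ndufc2, a membrane arm subunit, was at 53.0 and 55.1 FPKM at day 0 and at 109 and 125 FPKM at day 4 (1.11 ± 0.14 on the log2 scale, adjusted p = 0.0187, limma). Ndufa6, an accessory subunit at the base of the peripheral arm, was at 100 and 86.0 FPKM at day 0 and at 180 and 175 FPKM at day 4 (0.93 ± 0.15, adjusted p = 0.0279, limma), and its 4 vials of the second day 0 RNA, at 84.9, 86.6, 86.7 and 86.0 FPKM, hardly differed. Ndufv2, which holds an iron-sulphur cluster of the NADH end, was at 71.8 and 78.8 FPKM at day 0 and at 122 and 131 FPKM at day 4 (0.75 ± 0.14, adjusted p = 0.0359, limma).

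The remaining called complex I genes, Ndufb3, Ndufb4, Ndufb5 and Ndufc1, encode accessory subunits of the membrane arm. Their log2 differences were 0.70 for Ndufb3, 0.65 for Ndufb4, 0.72 for Ndufb5 and 0.67 for Ndufc1, and their adjusted p ran from 0.0350 to 0.0489 (limma). Ndufc1 shows how close its vials came to day 4: it was at 73.2 and 81.5 FPKM in the mix 1 and mix 2 vials of the second day 0 RNA, at 137 and 126 FPKM in its mix 3 and mix 4 vials, and at 141 to 169 FPKM in the day 4 vials. The ninth call, Cox8c, a testis isoform of complex IV, rests on values at the edge of detection: it was listed at 0 in all 8 day 0 libraries and in 6 of the 8 day 4 libraries, with 0.065 and 0.086 FPKM in the other 2, so no fold is given. After correction for GC content 6 of the 9 remained called higher by limma (Cox7c, Ndufc2, Ndufa6, Ndufb4, Ndufb5 and Cox8c). Cox8c passed the filter only through its 2 day 4 values near 0, so its call says nothing about the correction. Ndufc1 (0.97 ± 0.28, adjusted p = 0.0518), Ndufb3 (0.43, adjusted p = 0.0804) and Ndufv2 (0.24, adjusted p = 0.177) were not called by limma. The difference of Ndufc1 was then larger, with a larger SE.

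**Figure D3:**
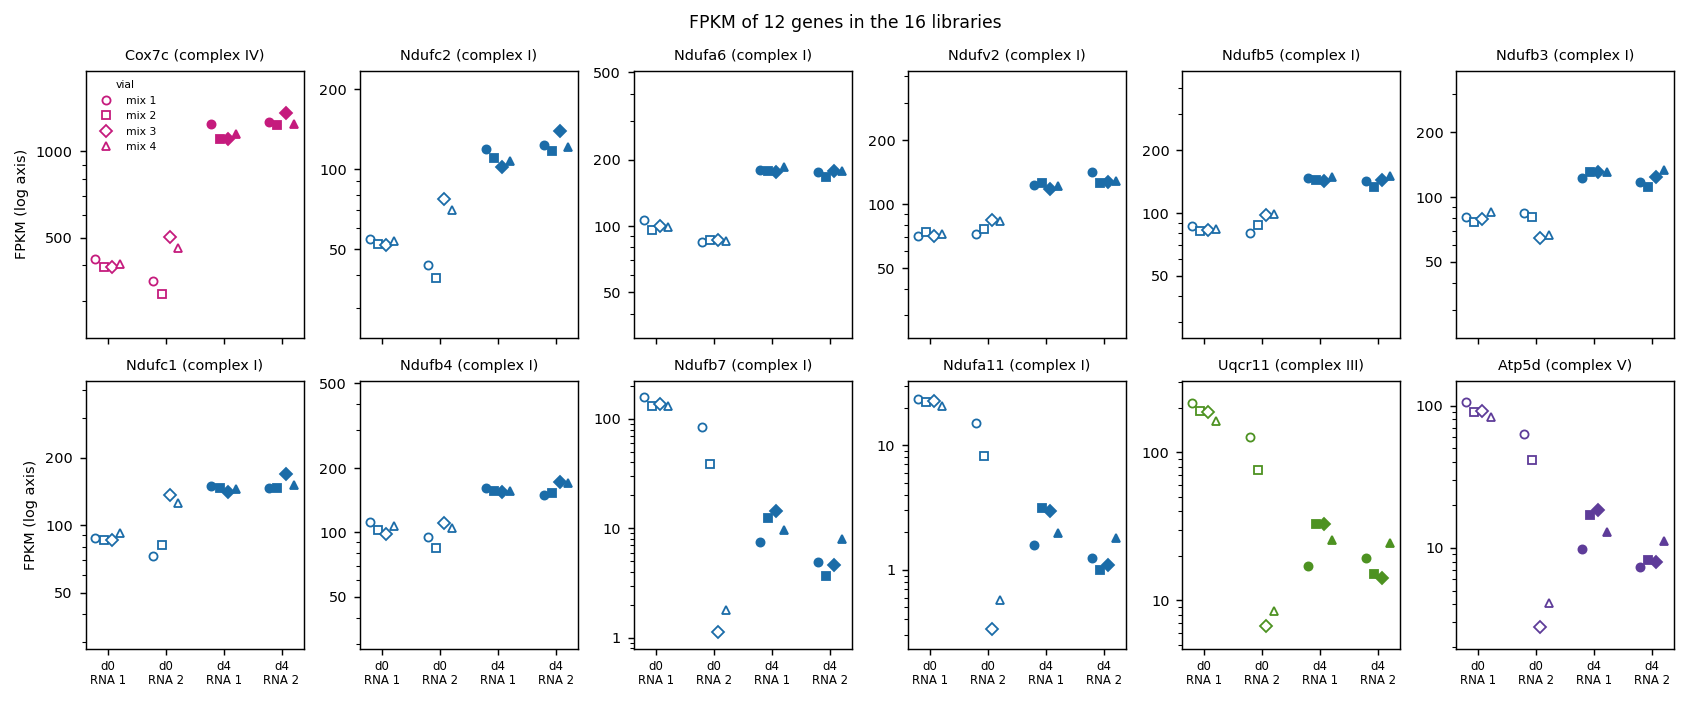
FPKM (vertical axis, logarithmic) of 12 genes in the 16 libraries, grouped by RNA sample, with day 0 as open and day 4 as filled symbols and the mix given by the symbol; 8 genes called higher at day 4 come first, followed by 4 of the genes with the lowest differences. Cox7c and Ndufa6 separate by day in every vial, whereas Ndufb7 spans 1.14 to 158 FPKM within day 0 and 3.64 to 14.5 FPKM at day 4.

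In complex I, 7 of the 37 genes were called higher and 0 lower, beside 14.9% and 9.96% of all genes tested, with a median log2 difference of 0.04 (11 with p at or under 0.05 before adjustment, limma). Without the 2 vials that stood apart 12 were called higher (32.4%) and 16 lower (43.2%), beside 27.1% and 34.2% of all genes, and the median was -0.19. Among the 7 nuclear core subunits, which carry the flavin, the iron-sulphur clusters and the quinone site, Ndufv2 alone was called higher. This is 14.3%, near the 14.9% of all genes tested. Ndufs1 had a log2 difference of 0.26, Ndufs3 0.22, Ndufs8 -0.86, Ndufv1 -1.19 and Ndufs7 -1.29. With the 2 vials left out Ndufs1 was called higher (0.33) and Ndufs8 (-1.69), Ndufv1 (-1.87) and Ndufs7 (-2.14) lower by limma, and after GC correction these were 0.01, 0.11, -0.13 and 0.17 and not called; with both changes Ndufv1 (-0.34) alone of these 4 was called. The 10 Ndufb subunits of the distal membrane arm had 3 calls (30%), all higher, beside 14.9% of all genes, and a median of 0.36. Without the 2 vials 4 were called higher and 1 lower (median 0.23), beside 27.1% and 34.2% of all genes. After GC correction 6 were called higher and 0 lower (median 0.80), beside 28.3% and 24.1%. With both changes 9 were called higher and 1 lower (median 0.93), beside 34.2% and 30.9%.

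Ndufb7 and Ndufa11 had the lowest differences in complex I, and both were also the genes with the largest difference between vials. Ndufb7, an accessory subunit on the intermembrane side, was at 132 to 158 FPKM in the vials of the first day 0 RNA. In the second day 0 RNA it was at 84.6 FPKM in the mix 1 vial, 39.1 in the mix 2 vial, 1.14 in the mix 3 vial and 1.78 in the mix 4 vial, and at day 4 it was at 3.64 to 14.5 FPKM. Thus 2 day 0 vials lay above and 2 below every day 4 vial within the same RNA. The log2 difference between the days was -2.28 ± 1.49 with all vials (adjusted p = 0.321, limma) and -3.58 without those 2 vials (adjusted p = 0.00802, limma). For Ndufa11, a membrane arm subunit, the vials of the second day 0 RNA read 15.1, 8.25, 0.334 and 0.571 FPKM in the order of the mixes, and the day difference was -2.03 ± 1.23 (adjusted p = 0.288, limma), or -3.13 without the 2 vials (adjusted p = 0.00625, limma). After GC correction the differences were smaller and not called, -0.92 ± 0.75 for Ndufb7 (adjusted p = 0.371) and -0.83 ± 0.60 for Ndufa11 (adjusted p = 0.322; limma); with both changes they were called lower, at -1.64 and -1.43.

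Ndufb6, a membrane arm subunit, had the highest mean of the complex I genes, although other subunits were above it in the first day 0 RNA. It was at 119 and 153 FPKM before RA and 215 and 243 FPKM after it, with a difference of 0.76 ± 0.20 that did not pass (adjusted p = 0.0697, limma) and of 1.00 without the 2 vials that did (adjusted p = 0.0026, limma). Ndufs5 cannot be read on its own. The pseudogene Ndufs5-ps took 92.9 to 100% of the summed FPKM of Ndufs5 and Ndufs5-ps in each library. How much of this stems from Ndufs5 transcripts was not tested. The sum was 106 to 118 FPKM in the first day 0 RNA, 95.3, 74.1, 16.7 and 19.1 FPKM in the vials of the second and 28.4 to 52.4 FPKM at day 4.

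None of the 4 complex II genes, which encode succinate dehydrogenase, was called with all vials (0 with p at or under 0.05 before adjustment, limma). Of all genes tested 14.9% were called higher and 9.96% lower, so 4 genes are too few to read this count. Sdhd, a membrane anchor, was the steadiest, at 115 to 126 FPKM in the 8 day 0 libraries and 110 to 116 at day 4, with a log2 difference of -0.08 ± 0.13. Sdha, the flavoprotein, was at 95.8 and 77.2 FPKM at day 0 and 75.9 and 70.2 at day 4 (-0.24 ± 0.17). Sdhb, the iron-sulphur subunit, was at 111 and 54.4 FPKM at day 0 and 69.9 and 59.2 at day 4 (-0.28 ± 0.41), and Sdhc, the other anchor, at 71.9 and 40.9 and at 66.1 and 55.9 (0.16 ± 0.33). Both Sdhb and Sdhc had lower values in the mix 3 and mix 4 vials of the second day 0 RNA (33.3 and 36.3 FPKM, and 25.5 and 28.8 FPKM) than in any other library. Without these vials Sdha and Sdhb were called lower by limma, with differences of -0.34 and -0.60, and 0 of the 4 higher, beside 34.2% lower and 27.1% higher of all genes. But after GC correction Sdhb was called higher, by 0.43 (adjusted p = 0.00767, limma).

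Complex III had 0 calls among 9 genes (2 with p at or under 0.05 before adjustment, limma), beside 14.9% higher and 9.96% lower of all genes tested. Its median log2 difference was -0.54. With the 2 vials left out 3 (33.3%) were called higher and 4 (44.4%) lower (median -0.70), beside 27.1% and 34.2% of all genes, and after GC correction the median was 0.02. Uqcrb, which binds ubiquinone, was the most abundant, at 250 and 376 FPKM at day 0 and 480 and 536 at day 4 (0.73 ± 0.26, adjusted p = 0.131, limma). Its day 0 vials fell into separate ranges, 247 to 300 FPKM in 6 of them and 512 and 497 FPKM in the mix 3 and mix 4 vials of the second RNA, which lie within the day 4 range of 446 to 555. Uqcrh, the hinge protein at cytochrome c1, was at 319 and 260 FPKM at day 0 and 495 and 403 at day 4, and its days did not overlap (0.63 ± 0.21, adjusted p = 0.107, limma). Uqcrc2, a core protein, was the nearest to the threshold (0.56 ± 0.12, adjusted p = 0.0506, limma). Uqcrb (0.94), Uqcrh (0.45) and Uqcrc2 (0.54) were called higher by limma without the 2 vials.

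Lower differences were found for Cyc1 and Uqcr11. Cyc1, the cytochrome c1 haem protein, was at 118 to 123 FPKM in the first day 0 RNA, at 105, 84.4, 12.4 and 16.8 FPKM in the vials of the second and at 17.2 to 32.9 FPKM at day 4 (-1.52 ± 0.67, adjusted p = 0.182, limma). Uqcr11, a small membrane subunit, was at 164 to 216 FPKM, then at 126, 76.5, 6.77 and 8.46 FPKM, and at 14.1 to 33.0 FPKM (-1.73 ± 1.05, adjusted p = 0.292, limma). Both were called lower without the 2 vials, Cyc1 at -2.19 (adjusted p = 0.00312) and Uqcr11 at -2.65 (adjusted p = 0.00606; limma), and not after GC correction, at -0.65 and -0.47; with both changes they were called lower again, at -0.90 and -0.82. In both genes the first 2 values of the second day 0 RNA lay above the day 4 range and the last 2 below it. By contrast Uqcrfs1, the Rieske iron-sulphur protein, differed by 0.09 between the days and by -0.10 between the vials.

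In complex IV, 2 of the 18 tested genes were called higher (Cox7c and Cox8c) and 0 lower, beside 14.9% and 9.96% of all genes tested. Cox8c entered the test only through 2 day 4 libraries near 0, so its call is no sign of a rise. The median log2 difference was -0.17 (4 with p at or under 0.05 before adjustment, limma). Without the 2 vials 2 (11.1%) were called higher and 9 (50%) lower, beside 27.1% and 34.2% of all genes, and the median was -0.42. Several complex IV subunits come as a widely expressed form and a form known from muscle, lung, testis or hypoxic cells. In these EBs the widely expressed form was the abundant one in every pair. Cox4i1 was at 742 and 189 FPKM at day 0 and 227 and 152 at day 4, while Cox4i2, the form known from lung and hypoxia, was at 6.77 and 1.88 and at 1.56 and 1.26 FPKM. The difference of Cox4i1, -1.01 ± 0.77, did not pass (adjusted p = 0.382, limma). It was -1.73 and called lower without the 2 vials (adjusted p = 0.00853, limma), Cox4i2 likewise (-2.01), and after GC correction the difference of Cox4i1 was 0.16. Its vials of the second day 0 RNA read 604, 432, 60.1 and 81.8 FPKM.

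The muscle forms Cox6a2 and Cox8b are listed at 0, and Cox7a1, the muscle form of Cox7a, was at 7.21 and 2.96 FPKM at day 0 and 1.51 and 0.794 at day 4 (-1.98 ± 0.60, adjusted p = 0.0929, limma). Cox7a1 was called lower without the 2 vials (-2.51, adjusted p = 0.00454) and after GC correction (-1.33, adjusted p = 0.0167; limma). The widely expressed counterparts of these forms were at 195 and 93.2 FPKM at day 0 and 103 and 82.5 at day 4 (Cox6a1), 272 and 192 and then 229 and 195 (Cox8a), and 148 and 114 and then 104 and 87.6 (Cox7a2). Of these, Cox7a2 had a difference of -0.44 ± 0.21, Cox6a1 -0.55 ± 0.43 and Cox8a -0.11 ± 0.24, and none passed; without the 2 vials Cox7a2 (-0.65) and Cox6a1 (-0.88) were called lower by limma. The direction of Cox6a1 turned after GC correction (0.71, not called), and with the GC correction and without the vials it was called higher (0.94, adjusted p = 0.00123, limma). Cox8a turned likewise after GC correction (1.11, not called), and with both changes it was called higher (1.44, adjusted p = 0.00322, limma). Cox7a2l, a relative that takes part in supercomplexes, was at 132 and 102 FPKM and then at 166 and 148 FPKM, with no overlap between the days (0.43 ± 0.19, adjusted p = 0.191, limma).

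Cox6b1, a subunit at the dimer face, was at 408 and 274 FPKM at day 0 and 290 and 263 at day 4 (-0.28 ± 0.25), and its testis form Cox6b2 at 5.99 and 1.21 and at 1.90 and 1.55 FPKM. Neither passed, but without the 2 vials Cox6b1 (-0.51) and Cox6b2 (-1.54) were called lower by limma. Cox7b was at 175 and 208 and at 195 and 211 FPKM and did not pass with all vials (0.08 ± 0.16). It was called lower after GC correction (-0.42, adjusted p = 0.0256, limma) and with both changes (-0.50, adjusted p = 7.5e-04, limma). Its testis form Cox7b2 stayed under 0.5 FPKM in every library. Ndufa4, described first as a complex I protein and now known with complex IV, was at 415 and 475 and at 502 and 517 FPKM (0.20 ± 0.16). Ndufa4 turned to -0.17 after GC correction (not called) and was called lower with both changes (-0.22, adjusted p = 0.0211, limma). Its relative Ndufa4l2, known from hypoxia, had the lowest difference of all 85 genes, -2.77 ± 0.64 (adjusted p = 0.0553, limma). It was at 2.91 and 0.882 FPKM at day 0 and 0.165 and 0.138 at day 4, its 8 day 4 libraries lay below every day 0 library, and it passed without the 2 vials (-3.30, adjusted p = 0.00144) and after GC correction (-1.74, adjusted p = 0.00199; limma).

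ATP synthase had 0 calls among 17 genes (2 with p at or under 0.05 before adjustment, limma), beside 14.9% higher and 9.96% lower of all genes tested. Its median log2 difference was 0.04. Without the 2 vials 6 (35.3%) were called higher and 6 lower, beside 27.1% and 34.2% of all genes. Atp5b, the catalytic beta subunit of the F1 head, was the most abundant, at 1073 and 755 FPKM at day 0 and 618 and 542 at day 4 (-0.64 ± 0.25, adjusted p = 0.15, limma). It was called lower both without the 2 vials (-0.84, adjusted p = 0.00522) and after GC correction (-0.36, adjusted p = 0.0350; limma). Atp5d, the delta subunit of the central stalk, was at 82.6 to 106 FPKM in the first day 0 RNA, at 63.4, 41.3, 2.80 and 4.09 FPKM in the vials of the second and at 7.33 to 18.4 FPKM at day 4 (-1.66 ± 1.07, adjusted p = 0.313, limma). The highest differences were those of Atp5j, coupling factor 6 of the peripheral stalk (0.79 ± 0.21, adjusted p = 0.0742), and Atp5mpl, a small membrane subunit (0.46 ± 0.16, adjusted p = 0.114; limma). Atp5d was called lower without the 2 vials (-2.63, adjusted p = 0.00642), and Atp5j (0.98) and Atp5mpl (0.48) were then called higher by limma. After GC correction none of these was called. The difference of Atp5d was then -0.20 ± 0.26 (adjusted p = 0.564, limma) and that of Atp5mpl 0.02. That of Atp5j was larger, with a larger SE (1.72 ± 0.65, adjusted p = 0.0973, limma). With both changes Atp5d (-0.52) was called lower and Atp5j (2.34) higher.

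The c ring of ATP synthase is built of a protein encoded by Atp5g1, Atp5g2 and Atp5g3, which differ in the import peptide that is removed. Atp5g1 was at 219 and 43.8 FPKM at day 0 and 43.1 and 27.9 at day 4 (-1.50 ± 0.89), and Atp5g2 at 332 and 131 and at 147 and 109 FPKM (-0.72 ± 0.53), whereas Atp5g3 was at 349 and 403 and at 396 and 389 FPKM (0.07 ± 0.16). None passed with all vials, and without the 2 vials Atp5g1 (-2.37) and Atp5g2 (-1.2) were called lower by limma. After GC correction Atp5g2 was instead called higher (0.33, adjusted p = 0.0246, limma), and Atp5g1 (-1.29) and Atp5g3 (0.21) were not called. With both changes Atp5g1 (-1.97) was called lower, and Atp5g2 (0.33) and Atp5g3 (0.43) higher, by limma. The corrected values of Atp5g1 depend on the transcripts its RefSeq rows were paired with for GC content. A row paired with a transcript of 4715 bases was given 46.8% GC, and another, paired with a transcript of 596 bases, 56.4%. Whether these pairings are right was not tested. Atp5g3 was the most abundant of them in every day 4 library. In the first day 0 RNA the 3 genes were at 212 to 222, 323 to 355 and 342 to 358 FPKM, and in the mix 3 vial of the second at 11, 62.0 and 459 FPKM. In this vial Atp5g1 was lower and Atp5g3 higher than in any day 4 library.

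Across the genes, the difference between the days followed the GC content and the difference between vials. Over 82 genes the day difference correlated with the difference between the mix 3 and 4 and the mix 1 and 2 vials of the second day 0 RNA with Pearson's r = 0.85 (Spearman's rho = 0.86), and with the GC content with r = -0.67 (rho = -0.68). Over 11434 genes of at least 1 FPKM the same correlations were 0.50 and -0.42. These are correlations across genes of the same libraries, and the second day 0 RNA enters both differences. Without the 2 vials in the day difference, r with the difference between vials was 0.92 (0.63 over the 11434 genes), with the mix 1 and mix 2 vials in both, which alone can raise it. For 66 of the 85 genes the difference between vials was larger in size than the day difference, and for 37 it was below -1. The share of all genes was not counted, so these counts cannot be read as particular to the studied genes. The median difference between vials was -0.88 for the studied genes and -0.09 for all genes tested. The latter include genes under 1 FPKM and are not matched for GC content, so this pair of medians cannot be read as particular to the studied genes. Genes of the same GC content are compared below. The gene length showed no such relation (r = -0.01 with the day difference).

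Grouped by GC content, the genes had median differences near those of other genes of the same GC content. The 27 genes of 42 to 49.1% GC had a median day difference of 0.31, and 4007 genes of the table in that range had 0.23. For the 27 genes of 49.4 to 54.4% GC it was -0.08, against -0.29 in 3028 genes. For the 28 genes of 54.6 to 61.1% GC it was -1.09, against -1.07 in 2579 genes. The vials of the second day 0 RNA showed the same order, with medians of 0.23, -0.80 and -2.41 for the 3 groups and 0.25, -0.69 and -1.86 for the other genes. Of the 9 calls, the 8 genes above 1 FPKM were spread over the lower 2 groups (5 and 3), and none was in the group of highest GC.

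**Figure D4:**
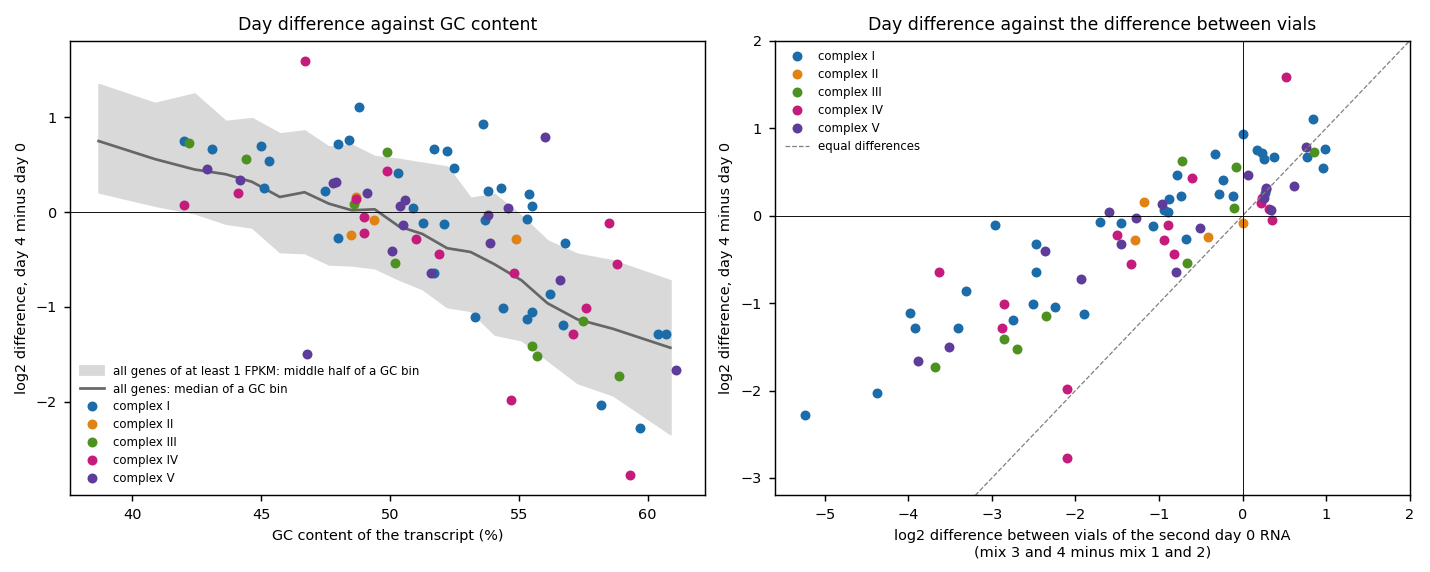
Left, log2 difference between day 4 and day 0 against the GC content of the transcript for 82 genes, with the median and the middle 50% of all genes of at least 1 FPKM in 20 GC bins in grey. Right, the same day difference against the difference between the mix 3 and 4 and the mix 1 and 2 vials of the second day 0 RNA, with a dashed line for equal differences. Most genes follow the grey median on the left, and on the right the differences between vials reach -5.24 while the day differences end at -2.77.

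After the FPKM were corrected for GC content in 20 bins per library, 24 of 84 genes (28.6%) were called higher and 4 (4.76%) lower by limma, beside 28.3% and 24.1% of all genes tested, with a median log2 difference of 0.16 (0.03 for all genes). Complex I had 15 of the higher calls and 0 lower ones, complex IV 3 and 3, ATP synthase 4 and 1. The genes called lower were Atp5b, Cox7a1, Cox7b and Ndufa4l2. The correction and the removal of the vials gave opposite calls for 5 genes, Atp5g2, Atp5k, Ndufa10, Ndufv3 and Sdhb, which were lower without the vials and higher after the correction. With both together 36 were called higher and 25 lower, beside 34.2% and 30.9% of all genes. With all vials and without the correction, Ndufa6 rose among the genes with the NRF-1 letters shown above. Ndufa11 (-2.03), Atp5g2 (-0.72), Cox6a1 (-0.55) and Sdhb (-0.28) then had differences below 0 that did not pass. After the correction Ndufa6 stayed called higher, and Atp5g2 and Sdhb were called higher. Cox6a1 was then above 0 and Ndufa11 below 0, neither of them called.

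Of the 87 genes, 11 have several RefSeq rows. Tested row by row, 3 of 104 rows were called higher and 0 lower by limma (16 and 4 with p at or under 0.05 before adjustment), against 8.67% and 5.18% of all 28214 rows. They were the rows of Cox7c, Ndufc2 and Ndufa6, each the sole row of its gene. For Ndufa7, an accessory subunit of the peripheral arm, the leading row of the median library differed between the days. The coding row held 86.4% of the gene's FPKM in the median day 0 library and 22.3% in the median day 4 library, and the most abundant of its non-coding rows held 10.2% and 68.6%. In the mix 3 and mix 4 vials of the second day 0 RNA, however, the coding row held a mean of 7.76%, and in its mix 1 and mix 2 vials 78.1%, so the vials of that RNA differed as much as the days did. The row differences were -2.01 ± 1.37 (adjusted p = 0.362) and 0.84 ± 0.31 (adjusted p = 0.159; limma). Ndufs1, the largest core subunit, has 4 rows. All 4 were given the same matched GC content (45.1%) and length (2661 bases), which may not be those of each row. The most abundant row held 41.1% in the median day 0 library and 67.5% in the median day 4 library. Its mean share was 68.0% in the mix 3 and mix 4 vials of the second day 0 RNA and 42.5% in its mix 1 and mix 2 vials. The split of reads among rows of a gene is an estimate, and no row of Ndufa7 or Ndufs1 passed the test.

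Genes listed as assembly factors, or as other factors that help the complexes form without staying in them, had a few calls. These are to be read beside 14.9% higher and 9.96% lower of all genes tested. For complex I, 4 of 14 rose and 1 fell. Ndufaf1, the most abundant of these, went from 15.6 and 19.7 to 37.6 and 39.2 FPKM (1.13 ± 0.18, adjusted p = 0.0272), Tmem126b rose by 1.09 and Ndufaf5 by 0.97 on the log2 scale, and Ndufaf6 fell by 1.00 (limma). Nubpl was the fourth that rose. For complexes II and III, 2 of 10 rose, Lyrm7 by 1.2 and Sdhaf4 by 0.86, and the most abundant, Uqcc2, differed by -0.62 ± 0.63. For complex IV, 1 of 20 tested rose and 2 fell. Cox20, which stabilises new Cox2 protein, went from 9.97 and 16.5 to 94.7 and 106 FPKM (2.96 ± 0.30, adjusted p = 0.0129, limma), a larger difference than that of any of the 85 subunit genes, and Cox18 fell by 1.14 and Lrpprc by 0.61. Of 3 ATP synthase factors, Atpaf1 rose by 0.85, and the most abundant, Tmem70, missed (0.86 ± 0.20, adjusted p = 0.0594, limma). Without the 2 vials 5 rose and 7 fell of the 14, 3 and 2 of the 10 (Uqcc2 fell), 4 and 10 of the 20, and 2 and 1 of the 3 (Tmem70 rose), beside 27.1% and 34.2% of all genes. After GC correction the counts were 5 and 5, 4 and 1, 4 and 6, and 2 and 1, beside 28.3% and 24.1% of all genes. Uqcc2 was then called higher (0.63, adjusted p = 0.00809, limma).

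Among 25 regulators of mitochondrial genes 3 rose (12%) and 5 fell (20%), beside 14.9% and 9.96% of all genes. Ppargc1a, a coactivator of respiratory genes, was at 0.00536 and 0.00241 FPKM at day 0 and at 0.546 and 0.619 at day 4 (2.71 ± 0.14, adjusted p = 0.00695, limma), on a scale that understates the change of genes near the pseudocount. Esrrg, a nuclear receptor that works with it, was at 0.0262 and 0.0290 and then at 2.62 and 2.92 FPKM (4.49 ± 0.22). Tfb1m, a mitochondrial ribosomal RNA methyltransferase, rose by 0.93. Lin28a, an RNA-binding protein of pluripotent cells, fell from 147 and 139 to 1.2 and 1.43 FPKM (-6.67 ± 0.16), Myc by 4.27 and Polg, the mitochondrial DNA polymerase, by 2.90 on the log2 scale; Lin28b and Pprc1 fell too. Of the factors whose letters were searched above, Nrf1 differed by -0.66 ± 0.37, Gabpa by 0.60 ± 0.23 and Yy1 by 0.49 ± 0.27, and none passed. Without the 2 vials Nrf1 was called lower (-0.96) and Gabpa (0.77) and Yy1 (0.70) higher by limma. After GC correction none of them was called (Nrf1 -0.40, Gabpa 0.06 and Yy1 0.65). The most abundant gene of the list, Atpif1, an inhibitor of ATP synthase, was at 243 and 159 and at 294 and 261 FPKM (0.50 ± 0.27). The list had a median of -0.66, and without the 2 vials 8 rose and 14 fell (27.1% and 34.2% of all genes). After GC correction 4 rose and 11 fell, beside 28.3% and 24.1% of all genes, and the median was -0.25.

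Of 23 genes for pyruvate use and the citric acid cycle, which feed the chain, 4 rose (17.4%) and 2 fell (8.7%), near the 14.9% and 9.96% of all genes tested, with a median of -0.14. Mpc1 and Mpc2, the mitochondrial pyruvate carrier, went from 14.1 and 15.2 to 59.4 and 65.5 FPKM (2.09 ± 0.14, adjusted p = 0.00761) and from 16.5 and 27.1 to 79.2 and 81.1 FPKM (1.92 ± 0.29, adjusted p = 0.0252; limma). Pdk1, a kinase that holds back pyruvate dehydrogenase, went from 9.69 and 10.9 to 40.6 and 38.9 FPKM (1.94 ± 0.14, adjusted p = 0.00842, limma), and Pdk3 was the fourth that rose. Ogdh, of the oxoglutarate dehydrogenase complex, fell by 2.11 and Idh3a, of isocitrate dehydrogenase, by 1.2, and Dld, the most abundant, differed by 0.38 ± 0.24. Without the 2 vials 6 rose, Dld among them, and 9 fell, beside 27.1% and 34.2% of all genes. After GC correction 6 rose and 7 fell, beside 28.3% and 24.1% of all genes, and Dld was not called (-0.20). Among 15 electron carriers, membrane carriers and uncoupling genes 1 rose, Etfdh (1.15), and 2 fell. Slc25a5, an ADP/ATP carrier, fell from 514 and 453 to 140 and 149 FPKM (-1.74 ± 0.15, adjusted p = 0.0103, limma), while the most abundant, its relative Slc25a4, was at 578 and 381 and at 495 and 469 FPKM (0.04 ± 0.27). Ucp1, which fell by 1.15, was under 0.2 FPKM. Without the 2 vials 3 of the 15 rose and 5 fell, beside 27.1% and 34.2% of all genes. After GC correction 3 rose, Slc25a4 (0.35) among them, and 4 fell, beside 28.3% and 24.1% of all genes.

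Markers of several cell types differed between the days, and in bulk RNA fewer cells of a type and less RNA per cell cannot be told apart. The counts below stand beside 14.9% higher and 9.96% lower of all genes tested. Of 10 pluripotency genes 7 fell and 0 rose. Pou5f1 went from 87.2 and 26.8 to 1.03 and 0.660 FPKM (-5.70 ± 0.68, adjusted p = 0.0170, limma), and the summed level of the list was 114.7 to 214.7 FPKM in the day 0 libraries (median 196.2) and 8.61 to 14.1 FPKM at day 4 (median 11.7). Of 8 RA response genes 5 rose and 1, Cyp26a1, fell; Rarb, the most abundant, went from 0.186 and 0.199 to 106 and 107 FPKM (8.51 ± 0.17, adjusted p = 0.00695, limma). Of 6 mesoderm genes 1 rose and 4 fell, and T, the most abundant, went from 72.6 and 61.2 to 0.0235 and 0.0139 FPKM. Of 6 endoderm genes 3 rose and 0 fell, and Gata6, the most abundant, went from 6.25 and 6.43 to 53.2 and 55.7 FPKM. Of 10 neural genes 3 rose (Dcx and Pax6 among them) and 2 fell (Tubb3 and Sox1), and the most abundant, Nes, was at 22.9 and 18.7 and at 18.3 and 20.4 FPKM.

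The markers of muscle are of use beside the muscle forms of complex IV. Of 8 cardiac and skeletal muscle genes 0 rose and 3 fell, and their summed level was 1.98 to 15.1 FPKM in the day 0 libraries (median 10.6) and 1.2 to 3.09 FPKM at day 4 (median 1.72). The sums in the mix 3 and mix 4 vials of the second day 0 RNA, 2.09 and 1.98 FPKM, lay inside the day 4 range. The most abundant of them, Acta1, was at 8.45 and 1.34 FPKM at day 0 and at 0.00444 and 0 at day 4 (adjusted p = 0.0387, limma). Of 6 blood genes 2 rose and 1 fell, with a sum of 21.6 to 49.8 FPKM at day 0 and 127.5 to 193.7 at day 4. The most abundant, Hbb-bh1, was at 40.6 and 26.0 and at 76.8 and 62.4 FPKM and did not pass, but it was called higher without the 2 vials (0.93, adjusted p = 0.0109, limma). With the 2 vials left out the counts higher and lower were 0 and 9 for pluripotency, 6 and 1 for RA response, 5 and 4 for neural, 5 and 0 for endoderm, 1 and 5 for mesoderm, 0 and 6 for muscle and 4 and 1 for blood genes, beside 27.1% and 34.2% of all genes. After GC correction the counts were 0 and 9 for pluripotency, 6 and 1 for RA response, 5 and 3 for neural and 5 and 0 for endoderm genes. They were 1 and 5 for mesoderm, 1 and 5 for muscle (Tnnt2 higher) and 2 and 1 of 5 tested for blood genes. Of all genes tested 28.3% were then higher and 24.1% lower. None of these marker genes was at 0 in all libraries. Their part in the values of the oxidative phosphorylation genes was not tested.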

How the data were processed

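Total RNA of mouse EBs was measured in 16 ribosomal RNA depleted, strand-specific libraries, paired-end. The authors mapped the reads to RefSeq transcripts of mm10 and spike-in transcripts with Bowtie2 2.1.0, estimated transcript levels with RSEM 1.2.18 and deposited an FPKM value (fragments divided by transcript length and by all mapped fragments) for each transcript, multiplied by TMM factors (0.928 to 1.125 in these libraries). The matrix holds no fragment counts, so the depth per value is unknown and no counting interval is given; 20555 to 22156 rows were above 0 per library.

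All 16 columns were assigned by the sample titles. Vials were joined to RNA samples by the description of samples in the supplement of the study. The FPKM of a gene's RefSeq rows were summed, transformed to log2(FPKM + 0.1) and averaged over the 4 vials of each RNA sample. Genes above 0 in at least 1 library were fitted with limma 3.58.1 (lmFit, eBayes with a trend, R 4.3.3), 2 against 2, with Benjamini-Hochberg adjustment over all genes tested. An exact permutation test of 2 against 2 cannot give a two-sided p below 0.333 and was not used. The biological replicates come from a repeat of the whole procedure, from EBs to both days, so the replicate number was read as a run of it, although no source says outright that equal numbers share a run; the deviations of replicate 2 from replicate 1 correlated between the days with r = 0.812 over 11603 genes, across genes, and the block is given beside the calls it changes. The study's mapping statistics also set apart, by intronic reads, the vials described as standing apart. GC content came from GENCODE vM21 transcripts matched by RefSeq accession (97.4% of rows, and 105 of the 107 rows of the genes studied), whose ends may differ from the RefSeq sequences; promoter windows came from RefSeq, GRCm38.p6. Rows were named by RefSeq accession (98.6% matched). The GC correction set the median of each of 20 GC bins to the same value in every library, so a true difference that follows GC is removed with it. The procedure was tested on simulated data of 11603 genes. There 61% of the changes of 1 on the log2 scale were recovered, and 100% of those of 2. Of the calls made there, 4.17% were false. The median absolute error of the differences was 0.11, while the SE of the studied genes reached 1.49. Recovery with vials that differ as those of the second day 0 RNA do was not tested. Python 3.11.15, numpy 2.4.6, pandas 2.3.3 and matplotlib 3.10.9 were used.

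Genes named with values are, in each complex, the most abundant one and those 2 with the highest and lowest differences at a mean of at least 1 FPKM, all called genes, the paralog groups and complex II, and in other lists up to 3 called genes per direction and the most abundant one. Further genes (core subunits of complex I, Uqcrc2, Uqcrfs1, Ndufs5, Ndufa7, Ndufs1, Nrf1, Gabpa and Yy1) were chosen after their values were seen. The genes, the lists and the motifs were chosen with earlier results of these data known. Spike-ins were not analysed here. Single values of a few genes are not reported here; these genes remain in the counts and medians.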

Additional observations from a re-analysis of the deposited data

Results flagged for a closer look

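In 92 groups of 8 libraries of a day (each named gene above 0, each complex and the sum of all genes), 2 had a library farther from the others than Dixon's 95% limit allows, where chance alone flags about 1 in 20 groups. Ndufc1 was at 169 FPKM in the mix 3 vial of the second day 4 RNA, and Ndufv2 at 141 FPKM in the mix 1 vial of that RNA, each the highest of the 8 day 4 libraries. The 8 libraries are vials of 2 RNA samples and not independent samples.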

How the results depend on the processing

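The count of genes called, 5108 with all libraries, was 3147 with a mean of at least 1 FPKM, 10498 with the GC correction, 7692 with a replicate block, 11658 with both, 9428 with the 16 libraries and the RNA sample as a random block, 12315, 9627, 477 and 1121 for the vials of mix 1, 2, 3 and 4 alone, 12522 without the mix 3 and mix 4 vials of the second day 0 RNA and 12972 with that and the GC correction, an alternative added after the data were seen. The genes called higher (9) became 24, 31 (with the block), 20, 23, 16, 0, 0, 23 and 36 under the GC correction, the GC correction with the block, the random block, mixes 1 to 4, the removal of the vials and that with the GC correction. The genes called lower (0) became 4, 8, 3, 45, 22, 37 and 25 under these settings other than mixes 3 and 4, and 1 with a pseudocount of 0.01 FPKM, 2 with the mean FPKM of the vials before the log, 1 with the TMM factor removed, 1 with libraries rescaled to the same sum and 3 with the replicate block alone. The median log2 difference went from -0.07 to -0.45 for mix 1 alone. Row by row, 3 were called higher. Leaving out an RNA sample left 0 to 9442 genes called, 0 to 14 of the studied genes higher, 0 to 18 lower and a median of -0.39 to 0.21; without the first or the second day 4 RNA 0 genes were called by limma (4593 and 4411 at an unadjusted p of at most 0.05), and the lone sample of a day is then assumed to vary like the others.

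Of the 42 genes named by the rule, the opposite direction was called for Atp5g2 (0.33 with the GC correction alone, with the block added and with the vials also left out), Sdhb (0.43, 0.43 and 0.48), Cox7b (-0.42, -0.42 and -0.50), Cox6a1 (0.71 with GC correction and block, 0.94 with GC correction and without the vials), Cox8a (1.11 and 1.44) and Ndufa4 (-0.22 with GC correction and without the vials). Among the other genes Atp5k (0.26), Atp5o (0.55), Ndufa10 (0.23), Ndufb8 (0.71) and Ndufv3 (0.73) also turned with the GC correction. The cause was not tested. Of 195 repeats of the 9 called genes, 134 stayed called, 61 lost the call and 0 turned.

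The replicate block gave 12 of the studied genes higher and 3 lower; it changed the call of 8 of the 85 genes (Atp5j, Cox7a1, Cox8c, Cyc1, Ndufa4l2, Ndufb6, Ndufs4 and Uqcrh) and no other.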
